A study of Homo sapiens with 10 samples.

Results

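Amino acid transporter genes of 7 solute carrier families (SLC1, SLC3, SLC6, SLC7, SLC36, SLC38 and SLC43) were examined in human lens epithelial cells with and without extra RORα. The members were all genes in the deposited table whose symbol is 1 of these family names followed by A and a number (a rule on symbols, with no threshold on a measured value). This gave 26 of 12540 genes, out of 59 symbols listed for the families: 4 of 7 for SLC1, 1 of 2 for SLC3, 4 of 19 for SLC6, 6 of 13 for SLC7, 2 of 4 for SLC36, 6 of 11 for SLC38 and 3 of 3 for SLC43. The other symbols, among them SLC7A5 and SLC7A8, which encode the LAT1 and LAT2 exchangers, were not analysed here. The cells, SRA01-04, are a human lens epithelial line kept growing by a viral T antigen. In 5 libraries (EV1 to EV5) the cells carried the empty plasmid, and in 5 (OE1 to OE5) a plasmid that drives RORα, a nuclear receptor and the product of RORA. All 10 libraries came from cells given 10 µM selenite for 24 h, starting 48 h after transfection, so no library shows untreated or untransfected cells. The labels name 1 cell line and leave unsaid whether each replicate had its own culture, so p-values measure only the spread between these libraries, which may be technical.

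Amino acids cross the plasma membrane on carriers that are sodium-driven importers, proton-coupled symporters or exchangers that trade an internal amino acid for an external one. Several SLC7 proteins are light chains that reach the surface only when bound by a disulfide bond to a heavy chain, SLC3A2 (4F2hc, also called CD98) or SLC3A1. The lens depends on import of cystine or cysteine, glutamate and glycine to make glutathione, and selenite oxidises thiols. Cystine uptake through SLC7A11 (xCT) followed by export of thiols is also known to favour the entry of selenite into cells. Many of these transporter genes are induced by ATF4, the transcription factor of the amino acid response.

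The stretches below were read from RefSeq promoter sequences (build GRCh38.p14, 250 bases before each listed start site) because they hold, or lack, letters bound by factors known for these genes. RefSeq promoters matched 21 of the 26 members, with 39 start sites, and SLC6A15, SLC7A2, SLC6A6, SLC7A11 and SLC43A3 had no entry. The motifs searched on both strands were the ATF4 element TGATGNAA (CARE), the antioxidant response core TGACNNNGC (ARE core), the ROR core AGGTCA and the E-box CACGTG. Capitals mark the matches, and the sequences run 5′ to 3′ on the strand of the gene. The SLC38A2 stretch holds the 156 bases from 250 to 95 before its start site, since annotated exon begins after them. The counts do not show which start site was used.
SLC3A2, ARE core, chr11:62881652-62881681, plus strand: cgagggtgggTGACTCAGCgtcctccttcc
SLC7A1, ARE core, chr13:29595754-29595783, minus strand: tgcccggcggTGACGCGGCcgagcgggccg
SLC1A5, CARE, chr19:46784893-46784922, minus strand: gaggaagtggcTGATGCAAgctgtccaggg
SLC1A5, ARE core overlapping the ROR core, chr19:46787385-46787414, minus strand: cctggatcttGCGAGGTCAgctcccgctcc
SLC1A3, CARE, chr5:36596357-36596386, plus strand: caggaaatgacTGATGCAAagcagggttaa
SLC38A1, no match, chr12:46267988-46268237, minus strand: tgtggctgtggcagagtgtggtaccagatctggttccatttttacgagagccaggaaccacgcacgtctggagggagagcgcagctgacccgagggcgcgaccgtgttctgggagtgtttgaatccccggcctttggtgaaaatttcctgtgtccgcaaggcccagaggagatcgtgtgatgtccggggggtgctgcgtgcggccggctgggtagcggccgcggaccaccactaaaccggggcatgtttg
SLC38A2, no match, chr12:46372868-46373023, minus strand: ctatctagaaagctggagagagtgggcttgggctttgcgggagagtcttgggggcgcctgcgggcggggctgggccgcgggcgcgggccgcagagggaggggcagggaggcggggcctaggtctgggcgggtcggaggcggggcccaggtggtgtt

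The CARE letters stood in 2 of the 39 member promoters, against 3.14% of 35116 promoters of the same length. The ARE core stood in 6 of 39 against 10.9%, the ROR core in 3 of 39 against 12.1%, and the E-box in 4 of 39 against 6.34%. The SLC1A5, SLC3A2 and SLC38A1 stretches lie before start sites inside the annotated gene, downstream of its outermost start. The SLC1A3 CARE stretch lies before a start site upstream of the annotated gene, which begins at position 36606355. Matches not printed were an E-box of SLC1A5 and an ARE core of SLC1A3. Also not printed were ARE cores of SLC7A6 and SLC7A7, and ROR cores of SLC36A1 and SLC7A14. The same holds for E-boxes of SLC36A1, SLC43A1 and SLC7A7. The members whose matches are printed were chosen by hand, and all of them rose. Of the members with matches not printed, SLC7A14 fell and SLC7A6, SLC7A7, SLC36A1 and SLC43A1 did not pass (below). The choice of what to print therefore says nothing about a link between matches and rises. The SLC38A1 and SLC38A2 stretches, from neighbouring genes that changed in opposite directions (below), held none of the 4 motifs. Such matches describe letters only, and the absence of a match in this window says nothing about a factor.

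RORA, which checks the labels, stood at 11.2 to 17 CPM (counts scaled to a common library size after TMM correction) in the empty vector libraries and at 38.6 to 44 CPM in the overexpression libraries (exact two-sided permutation test, p = 0.0079, the smallest that 5 against 5 allows). Library totals ran from 17475342 to 21956761 counts, and a count of 0 allows up to 0.172 CPM in the shallowest library, for counting error only. Of 15 lens markers, 6 were in the table (BFSP1, CRYAB, CRYGS, GJA3, PAX6 and SIX3), with a summed level of 40.3 to 45.3 CPM in the empty vector and 39.3 to 45.2 CPM in the overexpression libraries. Of these 6, 0 rose and 2 fell (33.3%), where 28.6% of all genes rose and 27.5% fell. The 2 that fell were CRYAB (log2 fold change -1.95) and BFSP1, a lens fibre filament protein (7.51 to 4.8 CPM, -0.65, edgeR adjusted p = 1.21e-05). PAX6, the eye field regulator, averaged 19.6 and 20.9 CPM, and CRYAB, the small heat shock crystallin, 1.43 and 0.37 CPM. Of 8 fibroblast markers, 6 were in the table. All 6 fell by edgeR, where 27.5% of all genes fell. Their summed level was 3059.9 to 3298 CPM in the empty vector and 1016 to 1141 CPM in the overexpression libraries. The largest falls were those of COL3A1 (log2 fold change -3.70), COL1A2 (-2.03) and COL1A1 (-1.5). PECAM1, the endothelial marker present, and CD14, the immune marker present, averaged 5.88 and 2.98 CPM in the empty vector and 3.16 and 1.49 CPM in the overexpression libraries. The part that these shifts in marker genes play in the transporter results was not tested.

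Transporter genes rose more often than they fell with RORα. Of the 26 members, which all passed the filter on low counts, 12 rose, 3 fell and 11 did not pass 0.05 (Benjamini-Hochberg adjusted p, quasi-likelihood test of edgeR). The rises are 46.2% of members, where 28.6% of the 12520 genes tested rose. The falls are 11.5% of members, where 27.5% of all genes fell. With a change of at least 1.5-fold as well, 5 members rose (19.2%, against 7.71% of all genes) and 0 fell (against 4.58%), since the largest fall was 1.32-fold. All 5 overexpression libraries lay above all 5 empty vector libraries for 11 members (42.3%, against 20.8% of all genes) and below them for 2 (7.69%, against 18.9%). The median log2 fold change was 0.10 over the members and 0.00 over all genes. These shares are descriptions, and no test was made of the list, which was proposed with earlier results of these data known. In bulk RNA, fewer cells with a transcript and less transcript per cell cannot be told apart.

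**Figure D1:**
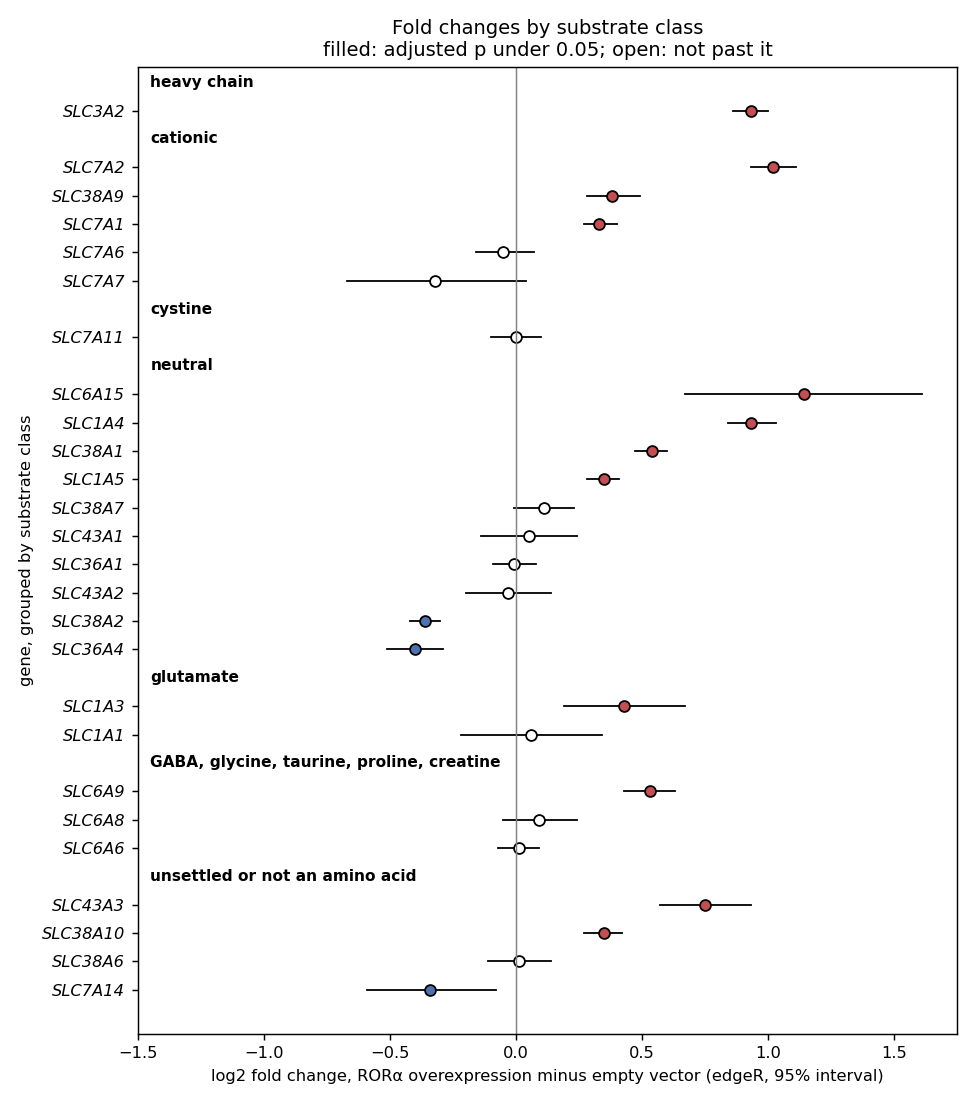
Log2 fold change (overexpression minus empty vector, x axis) of each member with its 95% interval from edgeR, grouped by substrate class (y axis). Filled points passed an adjusted p of 0.05 and open points did not; the heavy chain SLC3A2 stands at 0.93 and the cystine carrier SLC7A11 at 0.00.

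Levels between genes were compared per length, as CPM per kilobase of annotated exon. SLC38A2 (SNAT2), a sodium-driven importer of small neutral amino acids that cells raise when starved of them, stood highest in both groups, at 188 ± 6.19 and 146 ± 6.87 CPM per kb (SD, n = 5 per group). SLC1A5 (ASCT2), the glutamine exchanger, came next at 68.5 ± 2.65 and 87 ± 2.24. With the gene lengths implied by the deposited FPKM, SLC38A2 stayed highest (62.8 and 49), SLC7A1 came next (33.9 and 42.7) and SLC1A5 after it (23.8 and 30.2). In the empty vector libraries SLC7A1 (38 ± 1.65), SLC38A1 (35.9 ± 1.4) and SLC3A2 (35.7 ± 0.796) followed, with library ranges that overlapped between neighbours in this order. In the overexpression libraries SLC3A2 ranked 3 at 68 ± 3.24 and no longer overlapped SLC38A1 (52.1 ± 2.63), its next neighbour. With the implied lengths SLC3A2 stood at 2.63 and 5.03 CPM per kb, ranks 12 and 8. Its implied length, 70092 bases, is longer than the whole annotated gene (positions 62856102 to 62888875). These lower ranks therefore rest on a length that no transcript of the annotated gene can have. SLC6A15 was lowest in both groups, at 0.121 ± 0.0381 and 0.266 ± 0.0447. Of 25 neighbouring pairs in the order, library ranges overlapped for 13 in the empty vector and 11 in the overexpression libraries.

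**Figure D2:**
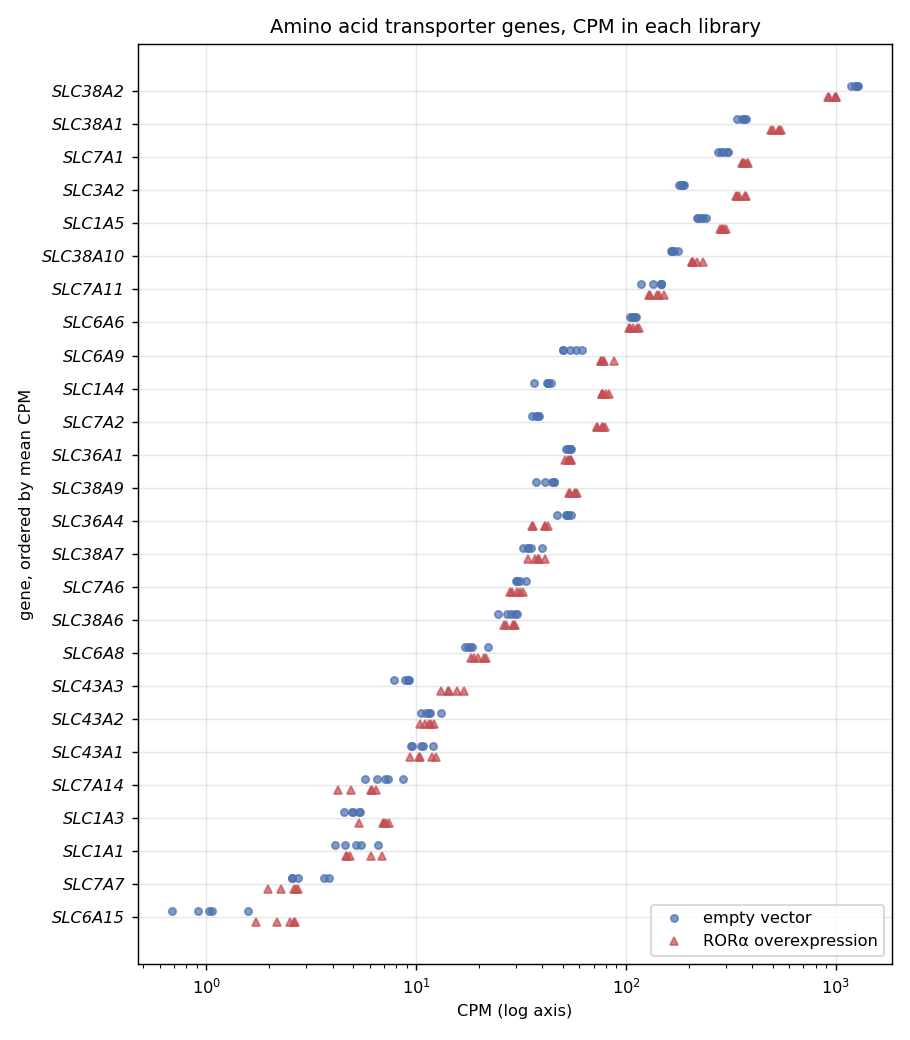
CPM of the 26 members in each library (x axis, log scale), with genes ordered by mean CPM (y axis); circles are the 5 empty vector and triangles the 5 RORα overexpression libraries. SLC3A2, SLC1A4 and SLC7A2 show separated groups, and SLC7A11 and SLC6A6 show mixed ones.

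The heavy chain rose 1.91-fold, and none of the 3 light chains analysed here passed the test. SLC3A2 (ENSG00000168003, chromosome 11, 62856102 to 62888875, plus strand, GRCh38), the chaperone of several SLC7 exchangers, stood at 184, 179, 183, 189.9 and 187 CPM in EV1 to EV5. In OE1 to OE5 it stood at 339, 336, 373, 347 and 368 CPM. Every overexpression library lay far above every empty vector library. SLC3A2 rose 1.91-fold; the means with SD over 5 libraries were 185 ± 4.12 and 352 ± 16.8 CPM, with a log2 fold change of 0.93 and a standard error of 0.033 (edgeR adjusted p = 5.73e-25).

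SLC7A11 (ENSG00000151012, chromosome 4, 138164097 to 138242349, minus strand), the xCT light chain that trades internal glutamate for external cystine, was the member of the cystine class in the table. Its CPM was 146, 147, 147, 118 and 135 in EV1 to EV5, and 141, 152, 128, 143 and 129.6 in OE1 to OE5. The groups overlapped, with EV4 the lowest of all and OE2 the highest. The mean was 139 ± 12.6 and 139 ± 10.1 CPM, and the log2 fold change of 0.00 had a 95% interval of -0.10 to 0.10 (edgeR adjusted p = 0.989). Without EV4 it was -0.05. An antisense gene overlaps 9% of its exon bases, and the labels name no step that marks the strand.

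The other light chains of SLC3A2 in the table, SLC7A6 (y+LAT2) and SLC7A7 (y+LAT1), trade cationic amino acids inside for neutral ones outside. SLC7A6 averaged 31.1 ± 1.44 and 30.1 ± 1.74 CPM (edgeR adjusted p = 0.493), and SLC7A7 3.07 ± 0.625 and 2.46 ± 0.33 CPM (adjusted p = 0.129), with overlapping groups in each case. The 95% intervals of their log2 fold changes were -0.16 to 0.07 and -0.67 to 0.04. Genes on the opposite strand cover 55.6% of the SLC7A6 exon bases, among them SLC7A6OS, whose own level was 7.53 and 7.67 CPM. Per kilobase of exon, SLC3A2 was 1.74 to 2.11 times the sum of these 3 light chains in the empty vector libraries and 3.18 to 4.02 times in the overexpression libraries. Against SLC7A11 alone the ratio was 2.35, 2.27, 2.32, 3 and 2.58 in EV1 to EV5 and 4.49, 4.1, 5.42, 4.52 and 5.28 in OE1 to OE5. With the implied lengths the heavy chain lay below the 3 light chains, at 0.17 to 0.22 and 0.308 to 0.403 times their sum. The order of heavy and light chains changed with the length used, but the implied length of SLC3A2 is longer than the gene itself (above). The groups stayed apart with both lengths. SLC7A11 made up 75.3% ± 2.71 of the light chain level in the empty vector and 76.3% ± 1.46 in the overexpression libraries. LAT1 and LAT2, the other main partners, are not in this sum.

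**Figure D3:**
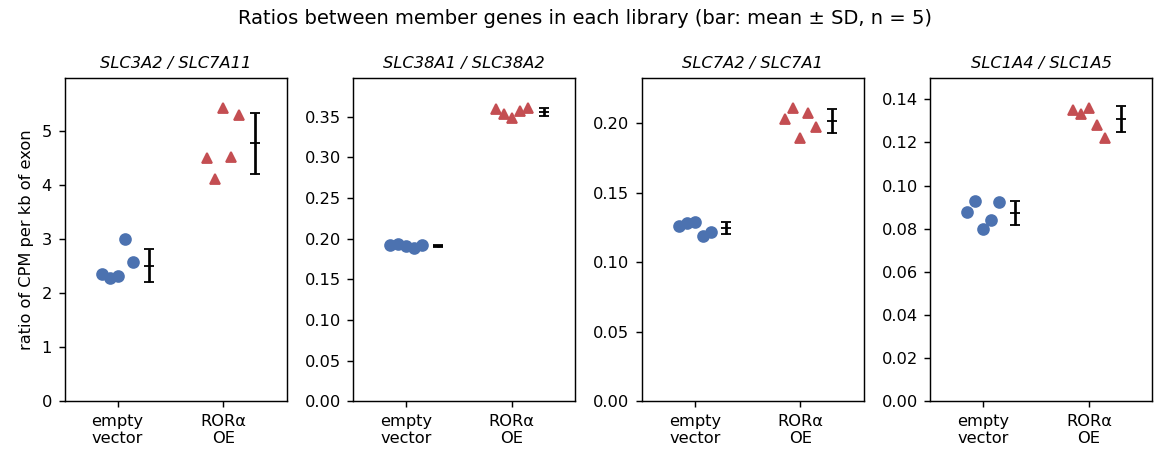
Ratio of CPM per kilobase of exon between pairs of members in each library (y axes, from 0), with the mean and SD of 5 libraries at the right of each group (x axis). The SLC3A2 to SLC7A11 ratio runs from 2.27 to 3 in the empty vector and from 4.1 to 5.42 in the overexpression libraries, and the SLC38A1 to SLC38A2 ratio from 0.189 to 0.193 and from 0.349 to 0.361.

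Among carriers of cationic amino acids (arginine, lysine and ornithine), 3 of 5 rose and 0 fell, against 28.6% and 27.5% of all genes. The 2 that did not pass were SLC7A6 and SLC7A7. SLC7A2 (CAT2, ENSG00000003989, chromosome 8, 17497088 to 17570573, plus strand), an arginine importer that inflammatory signals induce in macrophages and other cells, had the largest rise of the class. Its CPM was 35.7, 37.5, 38.6, 37.3 and 38.2 in EV1 to EV5, and 79.7, 77.2, 73.1, 77.5 and 72.9 in OE1 to OE5. No library crossed between groups, and the gene rose 2.03-fold (log2 fold change 1.02, SE 0.046, edgeR adjusted p = 1.04e-21).

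SLC7A1 (CAT1, ENSG00000139514, chromosome 13, 29509410 to 29595688, minus strand), the constitutive arginine and lysine carrier, is the more abundant paralog. It stood at 275, 285, 291, 305 and 304 CPM in EV1 to EV5 and at 383, 357, 376, 364 and 361 CPM in OE1 to OE5. The groups were again apart, with a smaller rise of 1.26-fold (log2 fold change 0.33, SE 0.032, edgeR adjusted p = 1.08e-11). Per kilobase, SLC7A2 was 0.119 to 0.129 of SLC7A1 in the empty vector libraries and 0.189 to 0.211 in the overexpression libraries. SLC38A9, the lysosomal transporter that reports arginine to mTORC1, rose 1.31-fold, from 42.7 ± 3.58 to 55.9 ± 2.02 CPM (adjusted p = 4.52e-08). EV4 was the lowest empty vector library for SLC38A9 at 37.2 CPM, and OE1 the lowest overexpression library at 53.5 CPM.

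Carriers of neutral amino acids changed in both directions. Of 10 analysed, 4 rose (SLC6A15, SLC1A4, SLC38A1 and SLC1A5), 2 fell (SLC38A2 and SLC36A4) and 4 did not pass (SLC36A1, SLC38A7, SLC43A1 and SLC43A2), with a median log2 fold change of 0.08. The shares that rose (40%) and fell (20%) stand beside 28.6% and 27.5% of all genes. SLC1A4 (ASCT1, ENSG00000115902, chromosome 2, 64988477 to 65023865, plus strand), an exchanger of serine, alanine, cysteine and threonine, stood at 42.4, 42.4, 36.6, 42.1 and 43.8 CPM in EV1 to EV5. In OE1 to OE5 it stood at 80.6, 78.1, 83.3, 76.6 and 76.8 CPM. The lowest overexpression value was well above the highest empty vector value, and the gene rose 1.91-fold (log2 fold change 0.93, SE 0.048, edgeR adjusted p = 9.15e-20).

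SLC1A5 (ENSG00000105281, chromosome 19, 46774883 to 46788594, minus strand), its paralog with glutamine as a main substrate, stood at 232, 219, 221, 241 and 228 CPM in EV1 to EV5. In OE1 to OE5 it stood at 287, 281, 293, 288 and 301 CPM. The groups did not overlap, and the rise was 1.27-fold (log2 fold change 0.35, SE 0.032, edgeR adjusted p = 4.95e-12). Per kilobase, SLC1A4 was 0.0797 to 0.0928 of SLC1A5 in the empty vector libraries and 0.122 to 0.136 in the overexpression libraries. Genes on the opposite strand cover 23.8% of the SLC1A5 exon bases.

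SLC38A1 and SLC38A2 are sodium-driven importers of glutamine and other neutral amino acids, encoded 88.2 kb apart on the minus strand of chromosome 12. SLC38A1 (SNAT1, ENSG00000111371, 46183063 to 46270017) rose 1.45-fold, from 359.9 ± 14 to 522 ± 26.4 CPM (log2 fold change 0.54, edgeR adjusted p = 2.44e-17). SLC38A2 (ENSG00000134294, 46358189 to 46372867) stood at 1252, 1276, 1266, 1174 and 1229 CPM in EV1 to EV5, and at 1002, 1002, 922, 995 and 913 CPM in OE1 to OE5. Every overexpression library lay below every empty vector library. SLC38A2 was 1.28-fold lower (log2 fold change -0.36, SE 0.029, adjusted p = 1.16e-13). The SLC38A1 to SLC38A2 ratio per kilobase was close to constant within groups, at 0.192, 0.193, 0.191, 0.189 and 0.192 in EV1 to EV5 and 0.36, 0.353, 0.349, 0.357 and 0.361 in OE1 to OE5.

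SLC6A15 (B0AT2, ENSG00000072041, chromosome 12, 84859488 to 84913615, minus strand), a carrier of branched-chain amino acids and proline best known from neurons, had the largest fold among the members at the lowest level. Its CPM was 1.03, 1.59, 0.687, 0.914 and 1.07 in EV1 to EV5, from 14 to 32 counts per library, and 2.65, 2.63, 2.52, 2.17 and 1.73 in OE1 to OE5, from 34 to 58 counts. The highest empty vector library, EV2, came close to the lowest overexpression library, OE5. The log2 fold change was 1.14 with a 95% interval of 0.67 to 1.61 (edgeR adjusted p = 6.75e-05), and limma on log2(FPKM + 0.1) did not call it (adjusted p = 0.0808). SLC36A4 (PAT4), a proline and tryptophan carrier of internal membranes, was 1.32-fold lower, at 51.7 ± 2.82 and 39.3 ± 3.29 CPM (adjusted p = 6.87e-08).

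SLC36A1 (PAT1), the proton-coupled lysosomal carrier of small amino acids, averaged 53.6 ± 1.13 and 53.4 ± 1.28 CPM, with a 95% interval of -0.09 to 0.08 for its log2 fold change. SLC38A7 (SNAT7), the lysosomal exporter of glutamine and asparagine, averaged 35.1 and 37.7 CPM (edgeR adjusted p = 0.118). It passed without EV4, at 0.0184, and without OE2, at 0.0451. SLC43A1 (LAT3) and SLC43A2 (LAT4), facilitators for large neutral amino acids, averaged 10.5 and 11.6 CPM in the empty vector and 10.9 and 11.4 CPM in the overexpression libraries, with overlapping groups.

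Both glutamate carriers in the table were low. SLC1A1 (EAAT3, ENSG00000106688, chromosome 9, 4490444 to 4587469, plus strand), which imports glutamate and also cysteine, stood at 4.56, 6.58, 5.2, 4.12 and 5.47 CPM in EV1 to EV5. In OE1 to OE5 it stood at 6.89, 4.7, 4.65, 6.11 and 4.82 CPM. The groups overlapped throughout, and the log2 fold change of 0.06 had a 95% interval of -0.22 to 0.34 (edgeR adjusted p = 0.717). SLC1A3 (EAAT1), the glial type of glutamate importer, rose 1.35-fold, from 5.05 ± 0.359 to 6.79 ± 0.821 CPM (adjusted p = 0.00212). OE3, at 5.36 CPM, lay below EV4, at 5.43 CPM, and limma on log2(FPKM + 0.1) did not call the gene (adjusted p = 0.0532).

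Of 3 carriers of glycine, taurine or creatine, SLC6A9 rose and the other 2 did not pass, where 28.6% of all genes rose. SLC6A9 (GlyT1), the glycine importer, rose 1.44-fold, from 54.8 ± 5.03 to 79.1 ± 4.96 CPM (edgeR adjusted p = 1.79e-11), with no overlap between groups. SLC6A6 (TauT), the taurine importer that helps lens cells balance osmotic stress, averaged 108 ± 3.21 and 109 ± 4.98 CPM, with a 95% interval of -0.07 to 0.09 for its log2 fold change. SLC6A8, the creatine importer, averaged 18.7 ± 2.01 and 19.9 ± 1.37 CPM (adjusted p = 0.283).

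The members with an unsettled substrate, or 1 that is no amino acid, numbered 4, of which 2 rose, 1 fell and 1 did not pass, where 28.6% and 27.5% of all genes rose and fell. SLC43A3 (ENBT1, ENSG00000134802, chromosome 11, 57406954 to 57427580, minus strand), a purine nucleobase carrier, stood at 9.13, 8.82, 7.81, 9.14 and 9.2 CPM in EV1 to EV5 and at 13.2, 14.3, 16.9, 15.7 and 14.2 CPM in OE1 to OE5. The groups were apart, and the gene rose 1.68-fold (log2 fold change 0.75, SE 0.088, edgeR adjusted p = 2.13e-09). A gene on the same strand shares 29.9% of its exon bases. Its neighbour SLC43A1, 57 kb away, did not pass. SLC38A10 rose 1.27-fold, from 168 ± 5.54 to 214 ± 11.2 CPM, and SLC38A6 averaged 28 and 28.2 CPM. SLC7A14, a protein of lysosomes with no settled substrate, was 1.26-fold lower, at 7.07 ± 1.07 and 5.57 ± 0.936 CPM (adjusted p = 0.0211), with overlapping groups, and without EV2 its adjusted p was 0.102, without OE4 0.0546 and without OE5 0.087.

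The opposite changes altered which genes supplied the transporter reads. The summed level of the 26 members was 3166 ± 33.6 CPM in the empty vector and 3519 ± 49.6 CPM in the overexpression libraries. SLC38A2 supplied 37.7% to 39.9% of these reads in the empty vector libraries and 26.4% to 28.3% in the overexpression libraries. SLC3A2 supplied 5.6% to 6.1% and then 9.49% to 10.7%, and SLC38A1 10.8% to 11.7% and then 14% to 15.3%. The share of SLC7A1 was 8.71% to 9.79% and 10.1% to 10.8%, and that of SLC1A5 6.86% to 7.74% and 7.95% to 8.74%. None of these 5 shares overlapped between groups. As parts of the same total they move together, so they are not separate results. In CPM, all overexpression libraries lay above all empty vector libraries for 20.8% of all genes, and below for 18.9%. The values here are shares of reads, to which a longer transcript gives more.

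**Figure D4:**
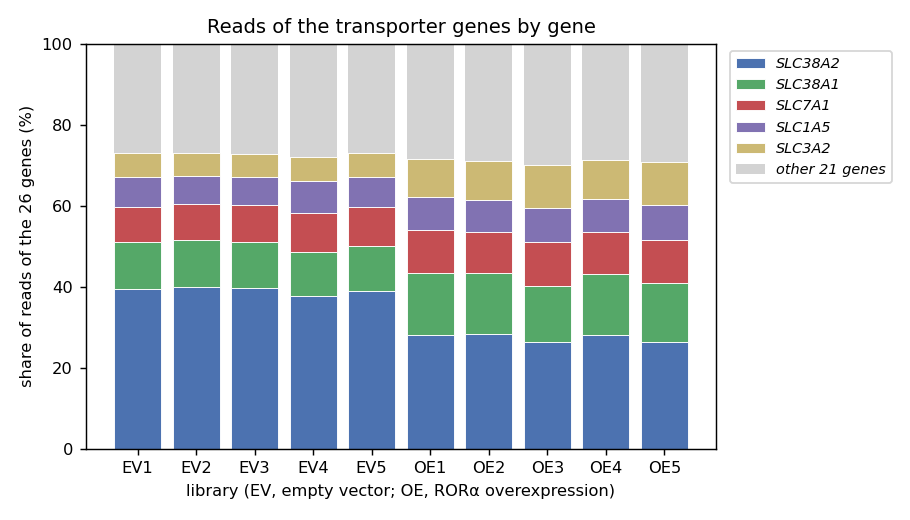
Share of the reads of the 26 members (y axis, percent) in each library (x axis) that came from SLC38A2, SLC38A1, SLC7A1, SLC1A5, SLC3A2 and the other 21 genes. The SLC38A2 share is 37.7% to 39.9% in the empty vector and 26.4% to 28.3% in the overexpression libraries.

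Genes around the transporters moved in both directions. Of 17 transcription factors that act on transporter genes (RORA included), 10 rose, 4 fell and 3 did not pass; their median log2 fold change was 0.31. The rises are 58.8% of the list against 28.6% of all genes, and the falls 23.5% against 27.5%. RORA, the transfected gene, is counted among the rises, and its own rise was set by the design. ATF3, a stress-induced repressor and activator, rose from 38.9 to 104 CPM, and CEBPB, a partner of ATF4, from 54.4 to 111 CPM. ATF4, NFE2L2, BACH1 and HIF1A were picked with their values already seen. ATF4 rose 1.54-fold, from 254 ± 4.8 to 392 ± 5.52 CPM (edgeR adjusted p = 3.05e-21). NFE2L2, which encodes NRF2, the activator at antioxidant response elements, averaged 92.7 and 98 CPM (adjusted p = 0.149). BACH1, another factor of this list, rose 1.74-fold, from 79.8 to 139 CPM (edgeR adjusted p = 8.33e-19). HIF1A, the hypoxia factor, fell from 803 to 406 CPM.

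Of 31 enzymes that use or make transported amino acids, 14 rose, 9 fell and 8 did not pass; the median log2 fold change was 0.08. The rises are 45.2% against 28.6% of all genes, and the falls, at 29%, are near the 27.5% of all genes. KYNU, a kynurenine pathway hydrolase, rose from 7.02 to 26.7 CPM, and ASNS, asparagine synthetase, from 0.688 to 1.93 CPM. ASNS was low, at 0.343 to 0.933 CPM in the empty vector libraries. TDO2, tryptophan dioxygenase, was 5.82-fold lower (3.22 to 0.558 CPM). Its overexpression libraries ran from 0.141 CPM, near the limit for a count of 0, to 1.12 CPM. The 95% interval of its log2 fold change was -3.09 to -1.99, so the size of this fall is loosely set. ARG2, a mitochondrial arginase picked with its values already seen, was 2.53-fold lower (15.7 to 6.23 CPM, edgeR adjusted p = 3.94e-13).

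Of 8 genes that carry cysteine and glutamate into glutathione or break it down, 3 rose (37.5%, against 28.6% of all genes), 1 fell (12.5%, against 27.5%) and 4 did not pass. CHAC1, which degrades glutathione, rose from 16.3 to 46.8 CPM, GSS, glutathione synthetase, from 67.7 to 77.8 CPM, while GCLM, the modifier subunit of the rate-limiting ligase, fell from 89.7 to 67.2 CPM. Of 33 genes of amino acid sensing by mTORC1, the kinase complex that couples growth to nutrients, 9 rose, 9 fell and 15 did not pass; the median log2 fold change was 0.01. Both shares, 27.3%, are near those of all genes (28.6% and 27.5%). SESN2, a leucine sensor that restrains mTORC1, rose from 28.9 to 88.9 CPM, KICS2, a subunit of the lysosomal KICSTOR complex, from 7.2 to 9.89 CPM, and CASTOR2, of the arginine sensor family, fell from 23.2 to 16.2 CPM.

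Of 9 transporters of amino acids, peptides or related solutes outside the 7 families, 3 rose (33.3%, against 28.6% of all genes), 1 fell (11.1%, against 27.5%) and 5 did not pass. SLC12A8, which has been proposed to carry nicotinamide mononucleotide or polyamines, was 2.13-fold lower (22.6 to 10.6 CPM). MFSD12, needed for cysteine import into lysosomes and melanosomes, rose from 66 to 96.5 CPM. Of 10 partners and regulators of transporter proteins, 4 rose (40%, against 28.6% of all genes), 3 fell (30%, near the 27.5% of all genes) and 3 did not pass. CD44, which binds and stabilises xCT at the surface, rose from 770.2 ± 2.37 to 1415 ± 39 CPM. NEDD4L, a ubiquitin ligase that removes several of these carriers, rose from 39 to 72.3 CPM. SGK3, a kinase that opposes NEDD4L, rose from 1.29 to 2.25 CPM. The related and more abundant SGK1, picked with its values already seen, fell from 403 to 301 CPM (edgeR adjusted p = 9.03e-16).

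**Figure D5:**
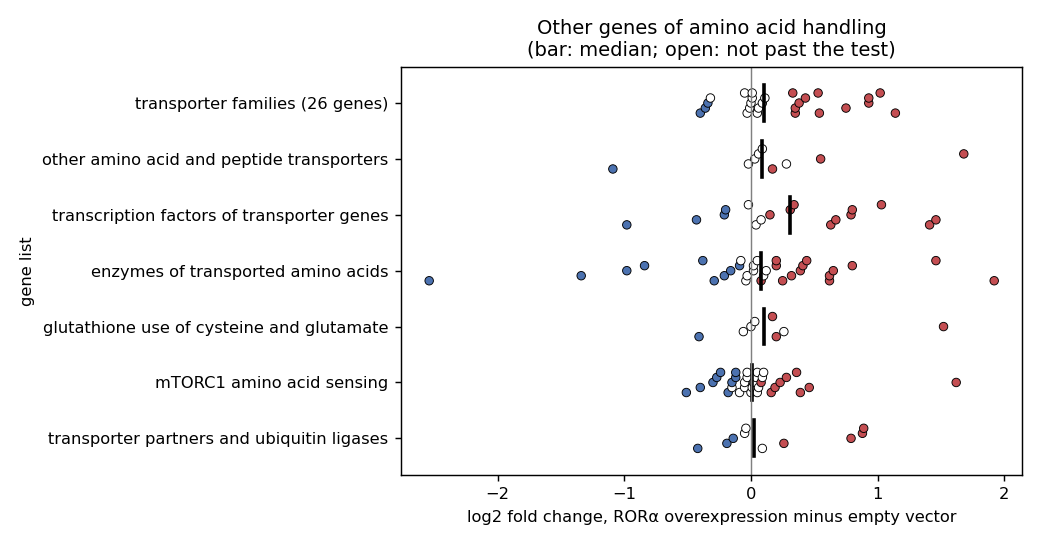
Log2 fold change (overexpression minus empty vector, x axis) of the 26 members and of the genes in 6 other lists of amino acid handling (y axis); red is higher and blue lower past an adjusted p of 0.05, open points did not pass, and bars are medians. The medians lie between 0.01 for mTORC1 sensing and 0.31 for the transcription factors.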

How the data were processed

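Poly-T selected RNA was sequenced from 10 libraries. The submitters' processing notes name HISAT2 2.2.1, HTSeq and GRCh38, without an annotation release. Per the file headers, the authors deposited raw read counts and FPKM for 12540 genes. The deposited FPKM values divide the count by the column total and by 1 length per gene, a median of 2.598 times the union of GENCODE 29 exons, so levels between genes used the union length. For some members, SLC3A2 and SLC38A2 among them, the implied length is longer than the whole annotated gene. No source states which genes were kept in the table; its lowest gene total was 88 counts.

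Groups came from the labels. Counts were filtered (filterByExpr, count of 10, total of 15, which left out 20 genes), scaled by TMM and fitted with edgeR 4.0.16 (quasi-likelihood, two-sided, Benjamini-Hochberg over 12520 genes) in R 4.3.3. Standard errors are the log2 fold change over the root of the F statistic, and intervals are at 95%. The edgeR script was tested on simulated data in which far fewer genes changed than here. Scaling under changes as wide as these was not tested. Alternatives used DESeq2 1.42.0, limma 3.58.1, other scaling and filters, a replicate block, and leaving out each library. Same-number libraries had residual correlations of -0.049 to 0.054, so numbers were not taken as pairs. No 2 replicates agreed within sampling noise (chi-square per degree of freedom 2.28 to 5.74). The 95% intervals include the spread between libraries. Reads carried no molecular identifiers, and the limit given for a count of 0 covers counting error only.

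The symbol rule uses no measured value, but the families and lists were proposed with earlier results of these data known. Values in every library were given for members changed at least 1.5-fold and for a core set (SLC7A11, SLC3A2, SLC7A1, SLC1A5, SLC38A2 and SLC1A1, with SLC7A5 not analysed here). Of each other list, up to 3 genes past the threshold were named by size of change. Some genes of these lists are counted but not reported by name here.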

Additional observations from a re-analysis of the deposited data

Results flagged for a closer look

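In some groups of 5 libraries, 1 library stood apart from the other 4 by more than 0.71 of the group's whole range (Dixon's 95% value). This held for 5 of 52 groups of member genes and for 9 of 102 groups in all, where chance gives about 1 in 20. SLC1A3 was low in OE3, at 5.36 CPM against 6.98 to 7.42. SLC1A4 was low in EV3, at 36.6 CPM against 42.1 to 43.8. SLC43A3 was low in EV3 too, at 7.81 CPM against 8.82 to 9.2. SLC6A8 was high in EV4, at 22.1 CPM against 17.1 to 18.5, and SLC6A9 was high in OE3, at 87.8 CPM against 75.9 to 78.4. Among the other genes named, ASNS was low in OE1 (1.46 CPM against 1.98 to 2.13), and PECAM1 was low in OE2 (2.87 CPM against 3.17 to 3.25). COL1A2 was high in EV4 (314 CPM against 299 to 303), as was COL1A1 (2500.0 CPM against 2293 to 2338). EV4 also held the highest empty vector value for 13 of the 26 members and the lowest for 6.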

How the results depend on the processing

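Across 20 alternative fits, 10 to 13 members rose and 2 to 3 fell. Of the 12 rises, 10 kept their call in every fit. The exceptions were SLC1A3 and SLC6A15, which limma on FPKM did not call (log2 differences of 0.02 and 0.01 with a pseudocount of 1). With the implied lengths, SLC1A3 averaged 0.0417 and 0.0561 CPM per kb in the empty vector and overexpression libraries. SLC6A15 averaged 0.0077 and 0.017. These levels lie below the pseudocounts of 0.1 and 1, which shrink log2 differences of such low values. Every fit on counts called both genes. Of the 3 falls, SLC38A2 and SLC36A4 kept theirs in every fit, and SLC7A14 lost it without EV2, OE4 or OE5. Requiring 1.5-fold as well left 5 members higher and 0 lower, and 965 and 573 genes in all. The replicate block gave 12 rises and 3 falls among members, the same counts as without it, and 3544 and 3406 among all genes; replicate numbers were not shown to pair the libraries. A change of sign occurred only in members that did not pass in either fit. SLC7A11 was at 0.00 or just below with DESeq2, RLE factors or the stricter CPM filter, and SLC36A1 at 0.00 or just above with library totals or limma on log2 FPKM (-0.01 with limma-voom). Leaving out each library gave -0.05 to 0.03 for SLC7A11, -0.04 to 0.17 for SLC1A1, -0.02 to 0.01 for SLC36A1, -0.03 to 0.04 for SLC38A6, -0.06 to 0.01 for SLC43A2 and -0.01 to 0.03 for SLC6A6. With the length implied by the deposited FPKM, the light chain shares became 93.2% and 93.6% for SLC7A11, 6.1% and 5.89% for SLC7A6, and 0.691% and 0.551% for SLC7A7 (empty vector and overexpression), SLC3A2 ranked 12 and 8 among members by level, and SLC7A1 and SLC1A5 ranked 2 and 3 in both groups. The implied length of SLC3A2 is longer than its annotated gene, which limits what its ranks by that length show. Depth limits SLC6A15, SLC7A7 and SLC1A1 most, with as few as 14 counts per library.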
